A study of Mus musculus with 2 samples.

Results

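Microexons are internal exons so short that they encode only a few amino acids. Those described here are the exons of 3 to 30 nt that are neither the first nor the last exon of an isoform, taken from the isoform annotation that long reads of mouse muscle stem cells (MuSCs) gave and counted once per chromosome, start and end. Transcripts that the annotation carries over from the reference were left out. The remaining 79696 isoforms held 115156 internal exons, of which 1045 were microexons, and these lay in 900 genes. They were part of 3170 isoforms with 394766 of the 11158960 supporting reads that all 79696 isoforms had. No member was chosen for its reads, its frame or its use.

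The cells came from C57BL6 mice of the genotype Pax7creERT2; R26-eYFP fl/fl, in which tamoxifen, given at 3 months of age, switches on YFP in cells that express Pax7, the transcription factor of MuSCs. YFP-positive cells were sorted from uninjured hindlimb muscle (quiescent) and from muscle taken 72 h after an injection of 1.2% barium chloride (activated), and both were run together in 1 capture. The droplets were divided into a 10% library, which was read by both Illumina and nanopore sequencing, and a 90% library read by Illumina alone. There were therefore no replicates, no cell was labelled with its origin, and the number of animals is not given in the sources used here. Shares are given with exact 95% intervals after Clopper and Pearson. Several reads can stem from 1 molecule, so these intervals reflect the error of counting reads and nothing else.

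A microexon leaves little room for the sequences that mark an exon to the spliceosome, and its use often depends on splicing factors that bind the neighbouring introns. In neurons the SR-related protein Srrm4 and its relative Srrm3 promote the use of many microexons, and Rbfox, Ptbp, Mbnl and Celf proteins act on microexons in brain and in striated muscle. An exon whose length is a multiple of 3 can be included or skipped without a change of the reading frame, so that it adds or removes a few residues, often on the surface of a protein or beside a binding domain.

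The sequences of 18 microexons in coding sequence are given here because the results below turn on them. They were read from Gencode vM21 transcripts (assembly GRCm38, called mm10 in the browser), 5′ to 3′ on the strand of the gene. The microexon is in capitals, with 20 nt of the exon before it and of the exon after it in lower case. The poly(C)-binding proteins, which bind cytosine-rich RNA, share a 24 nt microexon at chr15:102474131-102474154 on the plus strand (Pcbp2), chr10:76799529-76799552 on the minus strand (Pcbp3) and chr9:106460276-106460299 on the plus strand (Pcbp4).
Pcbp2: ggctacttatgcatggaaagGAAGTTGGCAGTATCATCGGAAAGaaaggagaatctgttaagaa
Pcbp3: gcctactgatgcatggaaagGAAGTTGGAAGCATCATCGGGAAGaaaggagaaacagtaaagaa
Pcbp4: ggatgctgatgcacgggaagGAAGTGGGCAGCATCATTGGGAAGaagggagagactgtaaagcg
The phosphatidylinositol transfer proteins have an 8 nt microexon, which cannot be skipped without a shift of the frame, at chr11:75608107-75608114 on the plus strand (Pitpna), chr5:111347120-111347127 on the plus strand (Pitpnb) and chr11:107320793-107320800 on the minus strand (Pitpnc1).
Pitpna: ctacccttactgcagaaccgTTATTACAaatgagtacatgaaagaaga
Pitpnb: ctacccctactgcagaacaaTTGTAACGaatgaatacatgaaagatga
Pitpnc1: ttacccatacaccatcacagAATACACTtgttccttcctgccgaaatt
Dst and Macf1, the giant linkers of actin filaments and microtubules, have an 18 nt microexon at chr1:34296742-34296759 on the plus strand and chr4:123364057-123364074 on the minus strand.
Dst: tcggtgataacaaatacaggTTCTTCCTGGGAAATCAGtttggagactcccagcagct
Macf1: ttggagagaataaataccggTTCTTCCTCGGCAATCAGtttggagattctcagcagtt
The calcineurin catalytic subunits have a 30 nt microexon at chr3:136932011-136932040 on the plus strand (Ppp3ca) and chr14:20503247-20503276 on the minus strand (Ppp3cb), and the filamins a 24 nt microexon at chrX:74232967-74232990 on the minus strand (Flna) and chr6:29451997-29452020 on the plus strand (Flnc).
Ppp3ca: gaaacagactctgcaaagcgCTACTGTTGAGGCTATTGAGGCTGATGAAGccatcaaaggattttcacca
Ppp3cb: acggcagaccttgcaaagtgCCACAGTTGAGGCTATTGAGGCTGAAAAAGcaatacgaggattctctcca
Flna: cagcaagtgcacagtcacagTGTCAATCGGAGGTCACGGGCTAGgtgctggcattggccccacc
Flnc: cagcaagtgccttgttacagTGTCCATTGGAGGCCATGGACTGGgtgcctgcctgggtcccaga
The last 6 are microexons whose use varied: those of Mef2a (chr7:67244521-67244544, minus strand), Ptk2 (chr15:73211987-73211995, minus strand), Capn2 (chr1:182482536-182482547, minus strand), Relb (chr7:19622926-19622934, minus strand), Psap (chr10:60297537-60297545, plus strand) and Max (chr12:76961263-76961289, minus strand).
Mef2a: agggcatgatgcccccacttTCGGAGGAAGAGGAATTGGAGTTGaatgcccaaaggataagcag
Ptk2: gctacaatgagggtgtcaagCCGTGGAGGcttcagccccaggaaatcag
Capn2: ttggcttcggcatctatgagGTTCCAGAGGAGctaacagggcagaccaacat
Relb: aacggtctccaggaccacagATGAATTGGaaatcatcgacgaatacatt
Psap: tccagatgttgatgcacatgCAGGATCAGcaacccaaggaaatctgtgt
Max: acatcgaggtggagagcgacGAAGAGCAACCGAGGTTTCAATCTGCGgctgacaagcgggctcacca

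With the limit at 30 nt, multiples of 3 were more common among microexons than among longer exons. Of the 1045 microexons, 529 (50.6%, 47.5 to 53.7%) had a length that is a multiple of 3, against 36.7% of 4495 internal exons of 31 to 50 nt, 39.4% of 33199 of 51 to 100 nt, 37.7% of 56008 above 100 and up to 200 nt, and 36.5% of 20409 longer ones. The commonest lengths were 30 nt (154 microexons), 27 nt (142), 29 nt (80), and 24 and 28 nt (79 each). Collagen genes, whose exons follow the 9 nt unit of the Gly-X-Y repeat, held 40 of the microexons, 27 of them of 27 nt, and without these genes the share of multiples of 3 was 48.9% (45.7 to 52.0%). The shortest internal exon of the counted isoforms had 5 nt, and 24 microexons had at most 10 nt. The upper limit cuts through a continuous range. There were 80 exons of 29 nt and 154 of 30 nt just inside it, and 100 of 31 nt and 115 of 32 nt just outside. All those of 30 nt are multiples of 3, and none of those of 31 or 32 nt are. The share of 50.6% and its gap to exons of 31 to 50 nt therefore depend in part on this limit.

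**Figure D1:**
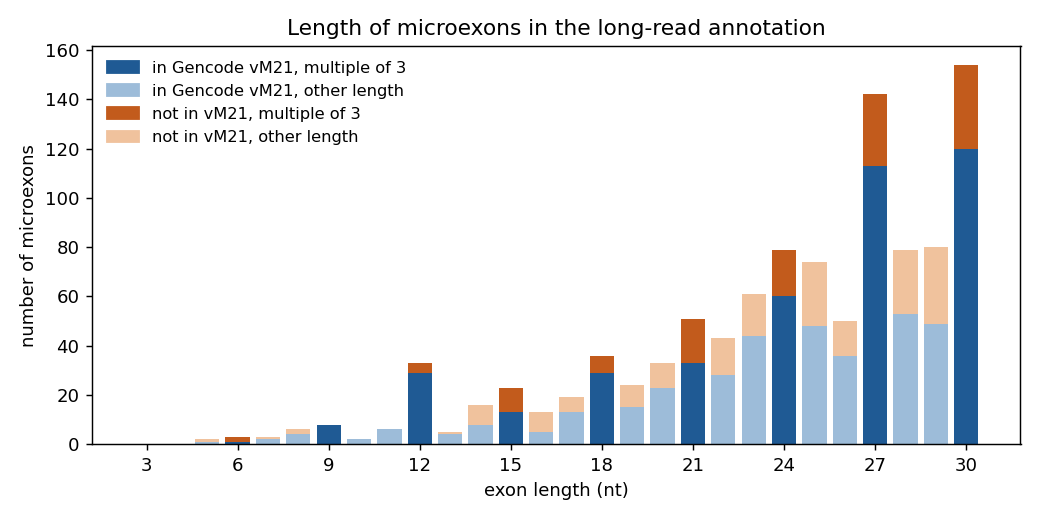
Number of microexons (vertical axis) by exon length in nt (horizontal axis). Blue bars are exons in Gencode vM21 and orange bars exons that are not, with multiples of 3 nt in the darker shade. The bars at 27 nt (142) and 30 nt (154) stand above their neighbours, and no bar lies below 5 nt.

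Most microexons were known ones in coding sequence. Both ends matched an internal exon of Gencode vM21 for 747 of the 1045 (71.5%, 68.6 to 74.2%), a lower share than among exons of 31 to 50 nt (81.3%) and 51 to 100 nt (90.4%). Of the 747, 676 lay wholly in coding sequence, 16 partly, 21 in a 5′ UTR and 3 in a 3′ UTR, while 18 occurred only in transcripts annotated for nonsense-mediated decay and 13 only in other noncoding transcripts. Multiples of 3 made up 55.8% (51.9 to 59.6%) of the coding ones and 28.6% (11.3 to 52.2%) of those in a 5′ UTR. Among the coding microexons of a length that is a multiple of 3, 47.0% (41.8 to 52.1%) began between codons, 34.75% after the first base of a codon and 18.3% after the second. The introns beside microexons had median lengths of 1037 nt upstream and 1008 nt downstream, against 1237 and 1114 nt for exons of 31 to 50 nt.

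How completely the long reads showed an exon depended on its length. Reference exons that every spanning coding transcript of their gene contains, and that at least 50 reads spanned, served as a check. Of 265 such exons of 21 to 30 nt, 264 were found, and the median share of spanning reads with the exon was 97.9%. Of 37 exons of 16 to 20 nt, 35 were found, with a median share of 94.6%, and of 23 exons of 11 to 15 nt, 20 were found, with a median of 82.6%. Of 6 exons of 8 to 10 nt, 5 were found and the median fell to 63.6%, and of 3 exons of 5 to 7 nt only that of Tnni2 was found. For exons of 31 to 50 nt, 99.2% of 2135 were found, with a median of 100%. The part that this loss has in the inclusion shares of the shortest microexons was not tested.

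**Figure D2:**
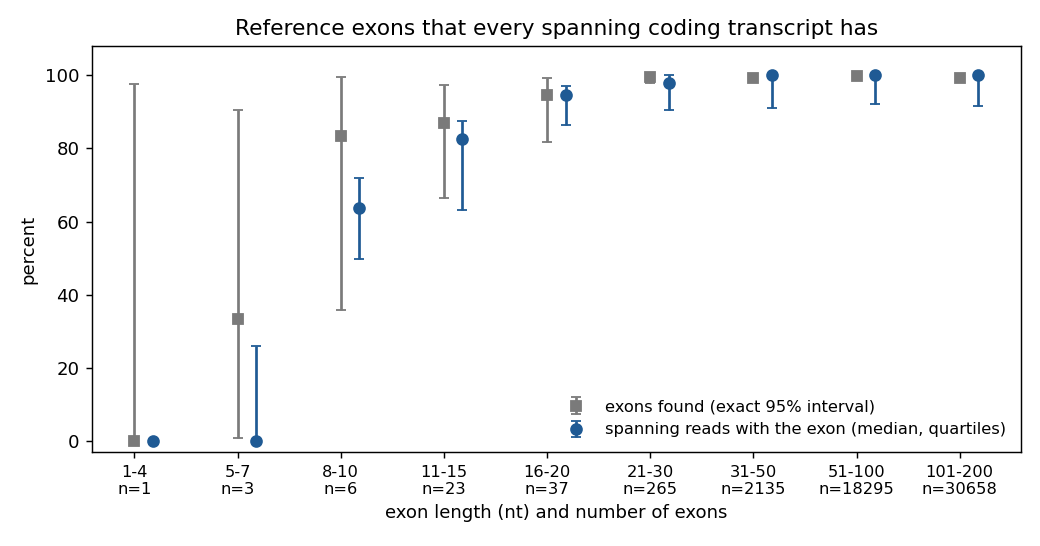
Reference exons that every spanning coding transcript of their gene contains, by length in nt (horizontal axis, with the number of exons). Grey squares give the percentage of exons found, with exact 95% intervals, and blue circles the percentage of spanning reads with the exon, as the median over exons with quartiles. The blue circles lie at 63.6% for 8 to 10 nt, 82.6% for 11 to 15 nt and 97.9% for 21 to 30 nt.

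Some of the shortest reference exons were not found in highly expressed genes. Phb2, a prohibitin of the inner mitochondrial membrane, has a reference exon of 6 nt, and none of its 8821 counted spanning reads carried it. There 3 reads would be a share of 0.034%. The 8 nt exon of Hnrnpm, an RNA-binding protein of the spliceosome, was in none of 862 reads, where 3 reads would be 0.348%. In contrast, 8 nt exons of Pitpnb, Pitpnc1 and Myef2 were found. None of the 19 reference exons of 1 to 4 nt with 50 spanning reads was found in the isoforms counted here. Transcripts that the annotation carries over from the reference were not searched. The 3 nt exon of Spp1 (osteopontin) was absent from 10285 reads, where 3 reads would be 0.0292%. That of Ncam1, the neural cell adhesion molecule of MuSCs and denervated fibres, was absent from 496 reads, which allows up to 0.605%. These exons are listed as not found in the counted isoforms, and whether the RNA lacked them was not tested.

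Inclusion was measured as the share of reads with the microexon among the reads of the gene's isoforms that span its position and either contain or skip it. Isoforms that cover the position with an exon of other ends were counted apart. At least 50 such reads were available for 701 microexons. In 369 of them (52.6%, 48.9 to 56.4%) the share was over 90%, in 248 (35.4%, 31.8 to 39.0%) it was from 10 to 90%, and in 84 (11.98%, 9.67 to 14.6%) it was under 10%. The middle class, from 10 to 90%, held 20.9% (19.5 to 22.3%) of exons of 31 to 50 nt. It held 14.3% of exons of 51 to 100 nt and 12.2% of those above 100 and up to 200 nt. It also held 30.6% of the 530 microexons of 21 to 30 nt and 29.3% (25.4 to 33.5%) of the 515 reference microexons. When only skipping isoforms that join the same neighbouring splice sites were counted, the share was 24.1% for microexons and 11.8% (10.7 to 13.0%) for exons of 31 to 50 nt. In the check above, 199 of 265 exons of 21 to 30 nt (75.1%) were in over 90% of their spanning reads. Exons of 31 to 50 nt had 76.5% by that measure, whose spanning reads include those with other ends. The part of read loss in the intermediate shares was not tested.

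Microexons that were skipped more often were more often a multiple of 3. Among reference microexons in coding sequence, 152 of 312 (48.7%, 43.1 to 54.4%) were a multiple of 3 when over 90% of reads included them, 86 of 130 (66.2%, 57.3 to 74.2%) when 10 to 90% did, and 21 of 24 (87.5%, 67.6 to 97.3%) when under 10% did. Exons of 31 to 50 nt had the same order, with 34.2%, 43.4% (38.3 to 48.6%) and 83.3% (67.2 to 93.6%) over these classes, so the order was not particular to microexons. The share of microexons was the higher one in every class. The intervals did not overlap at over 90% inclusion, where that of exons of 31 to 50 nt was 32.1 to 36.3%, or at 10 to 90%. They overlapped at under 10%. The size of these gaps depends in part on the length limit. Exons of 30 nt are a multiple of 3, and those of 31 and 32 nt are not. For skipping between the same neighbouring splice sites, the microexon shares were 48.7%, 72.45% and 90.0%. Microexons outside the reference had 42.9% (26.3 to 60.7%), 41.2% (31.3 to 51.7%) and 37.0% (24.3 to 51.3%) over the same classes, with intervals that overlap. The genes are not replicates of a condition, so these shares are descriptions and no test was run.

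**Figure D3:**
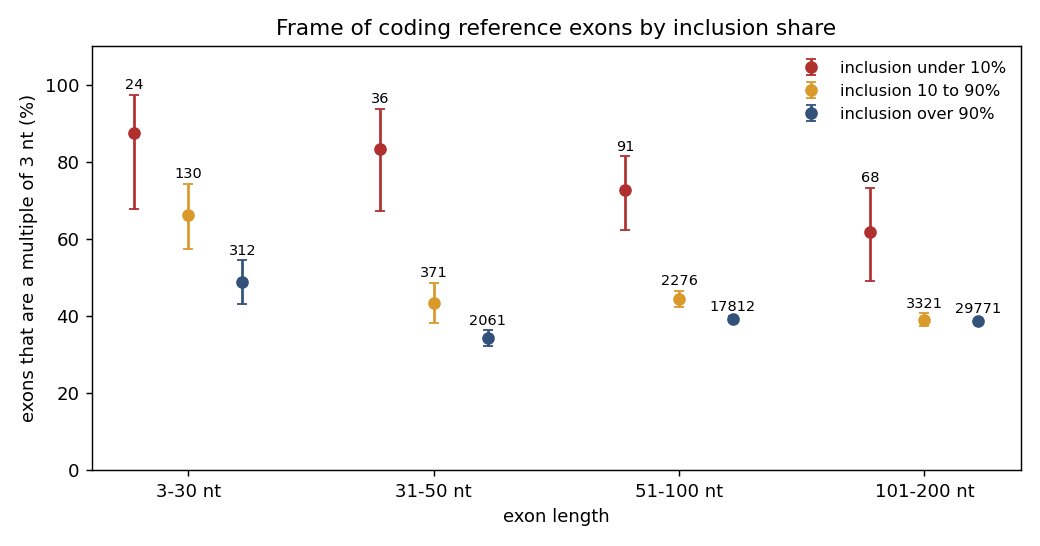
Percentage of coding reference exons that are a multiple of 3 nt (vertical axis) by exon length (horizontal axis) and by the share of reads that include them. Red, yellow and blue points stand for inclusion under 10%, from 10 to 90% and over 90%, bars are exact 95% intervals, and numbers are the exons in each class. The microexon points lie at 87.5%, 66.2% and 48.7%.

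The 12 microexons with the most reads lay in 9 genes of varied function. Rpl41, a very short protein of the large ribosomal subunit, had a 23 nt microexon in coding sequence with 63424 reads and without it in 783, an inclusion of 98.8%. A further Rpl41 microexon of 25 nt (48553 reads) shared one end with an exon of 23 nt (6739 reads), so that this site was used in forms that differ by the position of 1 splice site. Hmgn2, a nucleosome-binding protein, included its 30 nt microexon in 11871 reads and skipped it in none (99.97 to 100%). Hmgn1 has a pair of neighbouring 30 nt microexons, included in 10266 of 11659 reads (88.05%, 87.4 to 88.6%) and in 10133 of 10946 reads (92.6%, 92.1 to 93.1%). Of the skipping reads, 378 and 347 joined the splice sites that neighbour the exon. Lgals3 (galectin-3, a sugar-binding protein) had 9802 reads with its 22 nt microexon and 584 without, and Hnrnpk, an RNA-binding protein, had 8596 with its 16 nt microexon and 369 without. Uqcrh, a subunit of respiratory complex III, included 21 nt in 98.3% of reads, and Bsg (basigin, the partner of lactate transporters) included 25 nt in 96.6%. Genes such as Rpl41, Hmgn1, Hmgn2, Rps24 and Eif5a have processed pseudogenes, and reads of near-identical copies may have been divided between them, so these counts are uncertain.

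Among microexons used both ways with many reads, several lay wholly or partly outside the annotated coding sequence. Rps24 (ENSMUSG00000025290), a protein of the small ribosomal subunit known for the alternative exons at its C-terminus, had a 20 nt microexon at chr14:24495430-24495449, annotated in the 3′ UTR, with 24492 reads that included it and 9037 that did not. The inclusion of this exon was 73.05% (72.6 to 73.5%). Exons were placed by annotated coding spans, which leave out the stop codon. The authors describe the alternative exons of Rps24 as changing the protein coding sequence, so this place does not mean an unchanged protein. The 18 nt microexon of Rps24 at chr14:24494052-24494069, which is partly coding, was in 2993 reads and was skipped in 31152, an inclusion of 8.77% (8.47 to 9.07%). Hnrnpc, an RNA-binding protein, included a 26 nt microexon of its 5′ UTR in 2278 reads and skipped it in 1622 (58.4%, 56.8 to 59.96%). Eif5a, a translation factor, included a 30 nt microexon of its 5′ UTR in 1442 reads and skipped it in 41261 (3.38%, 3.21 to 3.55%). Gas5, a noncoding host gene of small nucleolar RNAs, included 28 nt in 6964 reads and skipped them in 857 (89.0%).

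Many microexons in coding sequence were both included and skipped. Snrpg, a core protein of spliceosomal small nuclear ribonucleoproteins, had 5485 reads with its 23 nt microexon and 1145 without (82.7%, 81.8 to 83.6%), although 23 nt shift the frame. The other genes of this paragraph were chosen after their values were seen. Capn2, the large subunit of m-calpain, included 12 nt in 1434 reads and skipped them in 410 (77.8%, 75.8 to 79.7%), 120 of which joined the neighbouring splice sites. Psap, the precursor of the saposins, included 9 nt in 307 reads and skipped them in 2325 (11.7%, 10.5 to 13.0%), 707 of which joined the neighbouring splice sites. Max, the partner of Myc on DNA, included 27 nt in 1195 reads and skipped them in 552 (68.4%, 66.2 to 70.6%). Axl, a receptor tyrosine kinase, included 27 nt in 70.2% of 2316 reads, with 237 of its 690 skipping reads between the neighbouring splice sites, and Anxa6, a membrane-binding annexin, included 18 nt in 67.65% of 2062. Immt, an organiser of mitochondrial cristae, included 15 nt in 54.85% of 1442 reads, and Idh3g, a subunit of isocitrate dehydrogenase, included 12 nt in 48.7% of 1260. Vps29, a subunit of the retromer, included 12 nt in 39.1% of 915 reads. The clathrin heavy chain gene Cltc included 21 nt in 8.24% of 437 reads, and Tmed2, a cargo receptor of the early secretory pathway, included 21 nt in 0.433% of 7616.

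Most of the shortest microexons had intermediate shares. Of the 24 with at most 10 nt, 21 had 50 reads that contained or skipped them, and 19 of these had an inclusion from 10 to 90%, with 89.0% as the highest and 50.9% as the median. Musk (ENSMUSG00000057280.15), the receptor kinase of the neuromuscular junction, had a 7 nt microexon at chr4:58347853-58347859 with 272 reads that contained it and 262 that did not (50.9%, 46.6 to 55.3%). None of those 262 reads joined the splice sites that neighbour the exon. Tnni2 (ENSMUSG00000031097.15), the inhibitory troponin of fast muscle, had a 7 nt microexon at chr7:142442691-142442697 with 143 reads that contained it and 133 that did not (51.8%, 45.7 to 57.8%). The reference coding transcripts of Tnni2 that span this exon all contain it. Pitpna, Pitpnb and Pitpnc1 included their 8 nt microexons in 89.0% of 1380, 87.6% of 1084 and 78.3% of 198 reads. Relb, a subunit of NF-kappaB, included 9 nt in 969 reads and skipped them in 309 (75.8%, 73.4 to 78.2%). The 6 reference exons of 8 to 10 nt that every coding transcript contains had a median inclusion of 74.96% by the same measure, so intermediate shares were also seen for exons that the reference never skips.

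Genes of muscle contraction held 15 troponin microexons. Tnnt3, troponin T of fast muscle, had 5, all spanned by the same number of reads. That of 18 nt at chr7:142504048-142504065 was skipped in none (96.4 to 100%) and that of 19 nt in 5, with 96 that contained it. The 14 nt microexon was in 85 reads and skipped in 16 (84.2%, 75.55 to 90.7%). That of 18 nt at chr7:142502740-142502757 was in 21 and skipped in 80 (20.8%, 13.4 to 30.01%), and that of 15 nt was in 20 and skipped in 81 (19.8%, 12.5 to 28.9%). The same gene thus had microexons with high and with low shares. Tnnt2, troponin T of cardiac and developing skeletal muscle, included 11 nt in 82 of 115 reads (71.3%, 62.1 to 79.35%) and 12 nt in 21 of 115 (18.3%, 11.7 to 26.55%). No read skipped the 11 nt exon between the same neighbouring splice sites. In Tnnt1, troponin T of slow muscle, the microexons of 27, 14 and 19 nt were skipped in none of 108, 103 and 78 reads, and 30 further reads covered the position of the last with an exon of other ends. Whether these reads came from MuSCs or from RNA of fibres was not tested. The fibre genes Ckm, Acta1 and Mylpf together had 77.05 CPM in quiescent-like and 16.6 CPM in other cells of the same library.

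Of 53 genes known for regulated microexons in brain or muscle, 51 were in the annotation and 15 held a microexon, 30 in all. For 25 of the 51, the reference holds a microexon but the isoforms counted here held none, as in Clasp2 (391 supporting reads over the whole gene) and Eif4g3 (328). How many of these reads span the reference microexons is not given here. Mef2a, a transcription factor of muscle, included the 24 nt microexon known as its beta exon in 39 reads and skipped it in 366 (9.63%, 6.94 to 12.9%). Ptk2 (focal adhesion kinase) included 9 nt in 61 reads and skipped them in 18 (77.2%, 66.4 to 85.9%), and with isoforms of at least 15 reads no skipping remained. Cd47, the ligand of the phagocyte receptor Sirpa, had microexons of 29 nt and 25 nt at the same start on chromosome 16, in 531 and 236 reads, and 1073 reads had neither. None of the 1073 joined the splice sites that neighbour the 29 nt form, and 1029 joined those of the 25 nt form.

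Cytoskeletal and adaptor genes of the list were spread over the whole range of inclusion. Abi1, a subunit of the actin-regulating WAVE complex, included 15 nt in 7 of 395 reads (1.77%, 0.715 to 3.62%), and Gopc, a Golgi scaffold, included 24 nt in 9 of 66 (13.6%, 6.43 to 24.3%). Ppp1r12a, the targeting subunit of myosin phosphatase, included 17 nt in 154 of 162 reads (95.1%, 90.5 to 97.8%), and Vav2, a guanine nucleotide exchange factor, skipped its 17 and 22 nt microexons in none of 55. Bin1, which shapes the membrane of T-tubules, included a reference microexon of 24 nt in 21 of 4231 reads (0.496%, 0.308 to 0.758%). The other microexons of Bin1, with 27, 20 and 15 nt, were outside the reference, and 4126 or 4224 reads covered their positions with an exon of other ends, against 71, 71 and 22 reads with them.

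**Figure D4:**
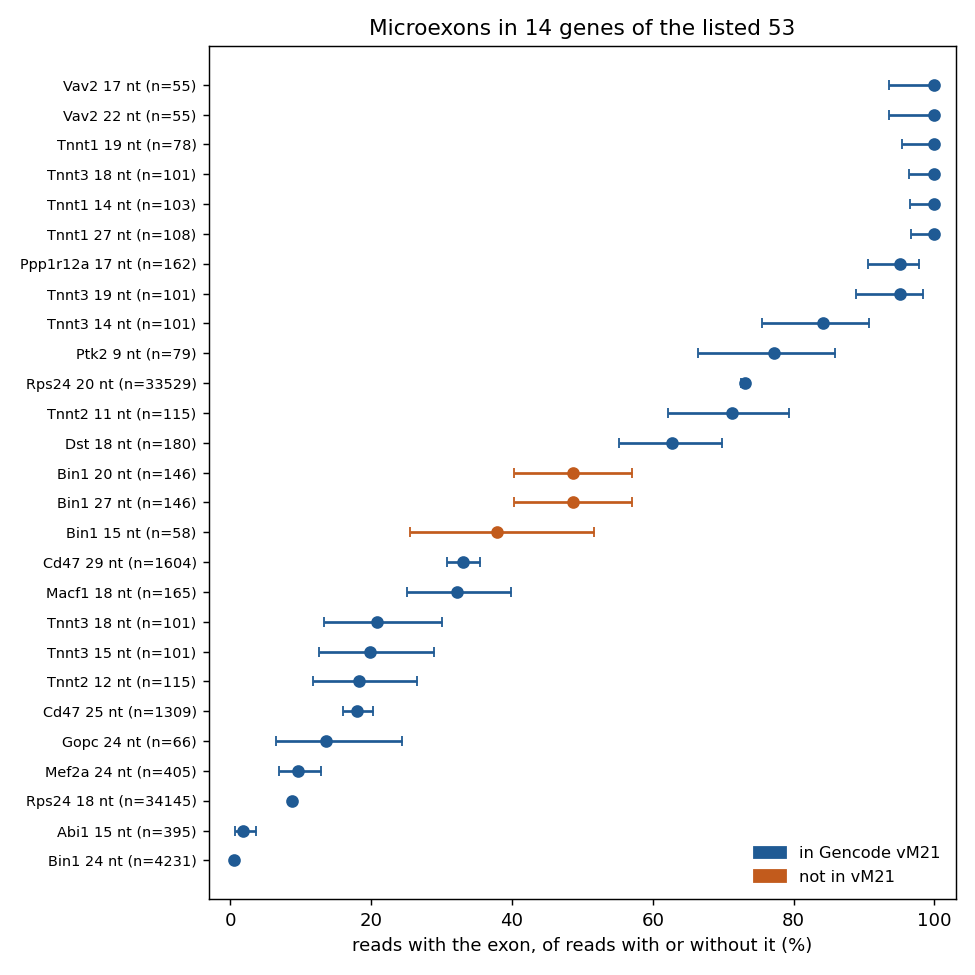
Inclusion share (horizontal axis, percentage of reads with the exon among reads with or without it) of 27 microexons with at least 50 such reads, in 14 of the genes known for regulated microexons. Points are shares and bars exact 95% intervals, blue for exons in Gencode vM21 and orange for others, with the number of reads beside each name. The shares run from 0.496% for Bin1 to 100% for microexons of Vav2, Tnnt1 and Tnnt3.

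Some related genes had a microexon of the same length with similar sequence. Most genes of this paragraph and the next were chosen after their values were seen. Of 652 coding microexons whose neighbours are coding too, 66 pairs from different genes had the same length and at least 60% identity over the exon and 20 nt of each neighbour, and these pairs involved 98 genes. The microexons of Pcbp2 and Pcbp3 were identical at 87.5% of 24 bases, and inclusion was 88.8% (5935 of 6683 reads) in Pcbp2, 100% (183 of 183) in Pcbp3 and 94.8% (3833 of 4043) in Pcbp4. The p38 MAP kinases Mapk11, Mapk12, Mapk13 and Mapk14 each had a 30 nt microexon that no read skipped, with 34, 72, 42 and 105 reads. The Myc antagonists Mxi1, Mxd1, Mxd3 and Mxd4 also had 30 nt microexons that no read skipped. Trim genes, many of them ubiquitin ligases, held 24 microexons, 15 of them of 23 nt. The myosin light chains Myl4, Myl6 and Myl6b had a 28 nt microexon with inclusions of 100%, 97.3% and 100%, while Myl1, the alkali light chain of fast muscle, included its 28 nt microexon in 14 of 193 reads (7.25%), and none of the others joined the neighbouring splice sites.

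Within some related pairs the inclusion differed. The 18 nt microexons printed above were included in 113 of 180 reads of Dst (62.8%, 55.3 to 69.85%) and in 53 of 165 reads of Macf1 (32.1%, 25.1 to 39.8%), although 88.9% of their bases are identical. Ppp3cb included its 30 nt microexon in 106 reads, a share of 73.6%, and Ppp3ca in 24 of 458, a share of 5.24%, with 86.7% of bases identical. Flnc, the filamin of muscle, included its 24 nt microexon in 223 of 223 reads, and the widely expressed Flna in 8 of 139 (5.755%), where none of the 131 skipping reads joined the neighbouring splice sites. The kinase Mark3 included 27 nt in 111 of 111 reads, and Mark2 in 54 of 272 (19.85%). These pairs were chosen for their differences, and each share comes from a gene with its own level of expression in the same cells.

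Microexons outside Gencode vM21 differed from the others in several measures. The authors used the later vM24, which may hold some of them. Of these 298, 245 used 1 splice site of the reference, 43 lay outside reference exons, 6 inside a reference exon and 3 joined splice sites of different reference exons, and the last lay partly over a reference exon. A single isoform contained 279 of the 298, against 253 of the 747 known ones, and the median number of reads was 23 against 81. Of the 298, 123 (41.3%, 35.6 to 47.1%) were a multiple of 3. The one with the most reads, 24 nt in Rps23 at chr13:90923176-90923199, had 4039 reads that contained it and none that skipped it, while 51588 reads covered its position with an exon of other ends. The 15 nt microexon of Rpl7a, also a ribosomal protein gene, was skipped by no read either, and was in 3.765% of reads when the 15619 with other ends were counted as skipping. The 27 nt microexon of Ncl (nucleolin) was in 419 reads, skipped in 972 (30.1%) and covered by other ends in 6807. A microexon of 8 nt in Naa50, an N-terminal acetyltransferase, lay outside reference exons at chr16:44143040-44143047, with 1078 reads that contained it and 2124 that did not (33.7%, 32.03 to 35.3%). Pomp, the proteasome assembly factor, had 12 nt at chr5:147870360-147870371 inside a reference exon, with 1299 reads and 1058 without (55.1%, 53.1 to 57.1%). No read of Naa50 or Pomp skipped the microexon between the same neighbouring splice sites, and each microexon rests on 1 isoform.

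Quiescent-like and other cells of the 10% library differed in the use of 1 of 12 microexons compared. The comparison used UMIs of isoforms named after a reference transcript, whose exons the reference gives. They made up 40.3% and 45.6% of UMIs, and both populations needed 50 such UMIs that contain or skip the exon. A difference of at least 20 percentage points was seen for 1 of the 12, against 5.95% of all 269 internal exons that passed the same minimum. In Rps24 the 20 nt microexon was in 869 of 966 UMIs of quiescent-like cells (90.0%, 87.9 to 91.8%) and in 2156 of 3451 of other cells (62.5%, 60.8 to 64.1%), a difference of 27.5 points (24.9 to 29.9). The 18 nt microexon of Rps24 was in 25.5% of 996 and 27.6% of 3594 UMIs, a difference of −2.07 points (−5.07 to 1.07). Max had 69.1% (62.9 to 74.8%) of 249 and 57.4% (51.3 to 63.3%) of 277 UMIs with its 27 nt microexon. Relb had 92.8% (89.0 to 95.6%) of 264 and 83.3% (76.95 to 88.5%) of 174, and Gas5 had 85.7% (82.6 to 88.5%) of 568 and 76.3% (72.5 to 79.9%) of 541. The interval of the difference left out 0 in 5 of the 12, these 4 genes and Eif5a, where the shares were 1.17% and 2.18%. Under this rule 36.1% of the 269 internal exons differed, so the share of microexons was near that of all exons. These shares are not on the scale of the read shares above. Hnrnpc had 97.7% and 96.8% of 88 and 216 UMIs with its microexon against 58.4% of reads, and the 18 nt microexon of Rps24 had 25.5% and 27.6% of UMIs against 8.77% of reads. The cause of these gaps was not tested.

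**Figure D5:**
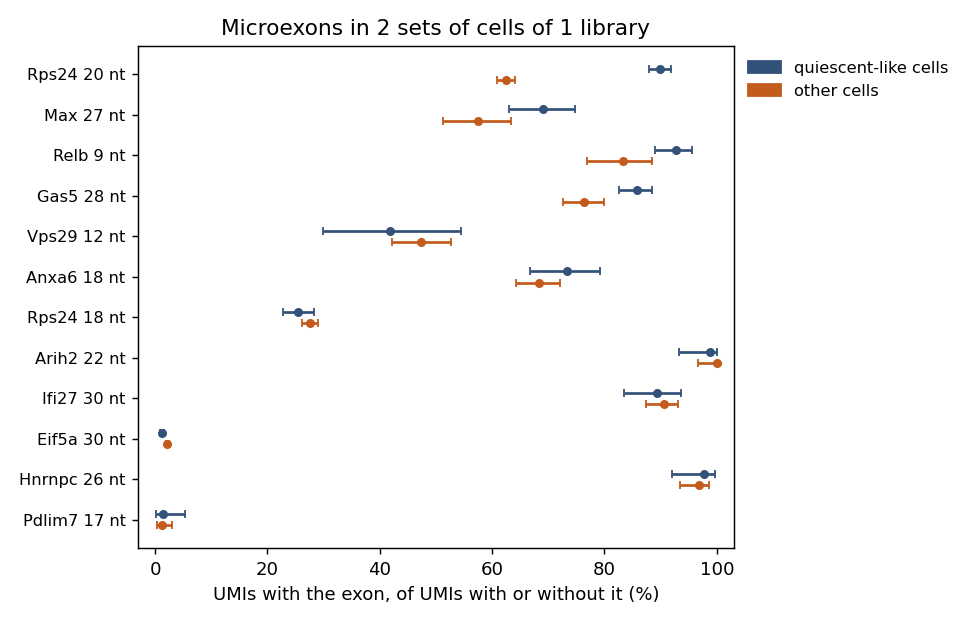
Percentage of UMIs with the microexon, of UMIs with or without it (horizontal axis), for the 12 microexons with 50 such UMIs in each population of the 10% library. Blue points are quiescent-like cells and orange points other cells, with exact 95% intervals. The 20 nt microexon of Rps24 lies at 90.0% and 62.5%, and the points of the others are less than 12 percentage points apart.

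These populations were taken from clusters of short-read counts of both libraries. In the 10% library 152 cells were called quiescent-like and 90 were not. Most clusters followed the libraries. The larger quiescent-like cluster held 146 cells, 144 of them from the 10% library. Other clusters of 235, 232 and 144 cells held 5, 4 and 0 cells of that library. Markers of a cluster were compared with all other cells of both libraries, so population and library cannot be told apart in the naming. The 9 quiescence markers, from which the clusters were named, had 551.5 CPM together against 75.3, and each was higher in the quiescent-like cells. Of the 90 other cells, 81 formed 1 cluster that carried no marker of the lists, with a median UMI count 6.82 times that of their library. The 9 activation markers had 1159 CPM together against 674 CPM in the other cells, against the direction of the name. Of the 9, 7 were lower in the quiescent-like cells, while Myod1 was higher (978 against 179 CPM), as was Myog (59.2 against 17.35 CPM). Depth moved with the populations, with a median of 7566 short-read UMIs per quiescent-like cell and 59260 per other cell. The 4 macrophage markers had 1.43 and 87.5 CPM, all higher in the other cells, with Lyz2, C1qa and Adgre1 at 0 in the quiescent-like cells. The 3 markers of fibroadipogenic progenitors had 34.2 and 1.97 CPM, where Dpt alone was higher in the quiescent-like cells, and the 3 endothelial markers had 1.43 and 3.55 CPM. The part of depth and of RNA of these cell types in the differences was not tested. Cells of 1 library are not replicates, so no test between populations was run.

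Known regulators of microexon splicing were measured by short-read UMIs of the same cells. Of the 18 listed, 14 were matched by symbol to a counted gene. Srrm3, Srrm4, Rbfox3 and Qki were not matched and were not analysed here. Absence from the counts and listing under another symbol were not told apart. Srrm2, an SR-related protein of the spliceosome, had 605 CPM (exact Poisson 95% interval 565 to 647) in quiescent-like and 184 CPM (172.5 to 196) in other cells. Mbnl2, a muscleblind protein, had 135.5 CPM (117 to 156) and 69.2 CPM (62.15 to 76.8), and the branch point binding protein Sf1 had 97.7 CPM (82.1 to 115.5) and 39.2 CPM (34.0 to 45.1). U2af2, the large subunit of U2AF, was the reverse, with 33.5 CPM (24.6 to 44.6) and 60.3 CPM (53.8 to 67.5). Of the 13 regulators with at least 50 UMIs, the interval lay higher in quiescent-like cells for 6 and lower for 1. Among all 7210 genes with as many UMIs it lay higher for 22.1% and lower for 32.7%, so such gaps were common. The intervals of Ptbp1, a repressor of microexons, overlapped, with 59.2 CPM (47.2 to 73.4) and 50.7 CPM (44.7 to 57.3). Rbfox1 had 3 and 1 UMIs, too few for a comparison.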

How the data were processed

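Long reads of the 10% library were turned by the authors into isoforms with FLAMES on GRCm38.p6, where reads were aligned with minimap2 2.17, splice sites within 5 nt were merged and isoforms with fewer than 5 full-length reads were discarded. The authors deposited an annotation with the supporting read count of each isoform, UMI counts per isoform, and scPipe tables of UMI counts per gene from the short reads, none of them normalized. The submitters' processing notes also name Cell Ranger 1.3. The deposited counts were used as they stand.

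Exons were compared with Gencode vM21, while the authors used vM24. Microexons listed in more than 1 gene (19) were assigned to the gene with the most reads. Quiescent-like cells came from clusters of the barcodes with the most UMIs, as many as the study counts as cells in each library (SCTransform in Seurat 5.3.0 under R 4.3.3, 30 principal components, resolution 0.6). Clusters were named where 3 quiescence markers were in 10% of cells and 2-fold higher after adding 10 CPM, with no more markers of another class among the 10 leading genes, a rule set after clusters had been seen. The clusters so named held 146 and 15 cells. Doublets were not removed. Of the barcodes, 634 are in both libraries, 86 of them among the cells kept. Intervals of differences are Newcombe's. Named microexons were the 12 with the most reads, the 12 with the most reads on the less used choice, the 5 most read outside the reference, the 5 shortest with 50 reads, the 5 with the largest difference between populations and those in the 53 genes, and others were chosen after their values were seen. The result of 1 listed gene is not reported here. The members and lists were chosen with earlier results of these data known, and the gene families after the members had been seen. Alternatives changed lengths, isoforms, spanning rules, read minimums, cell filter and normalization. The counting was tested on simulated data, with 2200 of 2200 constructed cases right, in Python 3.11.15 with scipy 1.17.1.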

Additional observations from a re-analysis of the deposited data

Results flagged for a closer look

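The annotation also holds 5265 transcripts taken over from the reference, which the comparisons above do not use. In these transcripts 99 further microexons of 3 to 30 nt are listed, with 9897 supporting reads, which is above the limit of 3 counts that a count of 0 allows. They would raise the number of microexons from 1045 to 1144.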

How the results depend on the processing

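The number of microexons was 732 for 3 to 27 nt, 829 with isoforms of at least 15 reads and 1144 with reference transcripts added. The share of multiples of 3 stayed between 48.9% and 51.2%. Both upper limits used, 30 and 27 nt, are multiples of 3, so this range cannot show how the share depends on the limit. The share in the reference was 74.8% with isoforms of at least 15 reads. The share with 10 to 90% inclusion was 24.1% for skipping between the same neighbouring splice sites, and, in alternatives chosen after seeing the data, 30.6% for 21 to 30 nt alone and 29.3% for reference microexons alone. The number of microexons that differed by 20 points between populations was 3 with same-named isoforms of the annotation added (77 compared), 3 with 20 UMIs in each population (19 compared), 2 with the 15-cell cluster counted with the other cells (11 compared), and 1 with another cell filter and with log normalization. Rps24 was among them each time, with a difference from 22.65 to 27.7 points. The others were Mrpl24 (38.2% against 14.8%) and Phip (68.4% against 42.4%) with same-named isoforms, and Abi1 (50% against 10%) and the 9 nt exon of Iffo1 (61.9% against 12.5%) with 20 UMIs. With the 15-cell cluster moved, an alternative chosen after seeing the data, Max differed by 20.9 points. Of the named microexons, 19 of 51 moved beyond their interval with the same neighbouring splice sites, 20 of 51 with other ends counted as skipping and 6 of 47 with isoforms of at least 15 reads, and the cause was not tested. Rps23, for one, had 7.26% with other ends counted as skipping. No paired analysis was possible because there is 1 capture and no replicate. Depth limits the inclusion shares, which could be given for the 701 of 1045 microexons that had 50 reads.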
